A study of Mus musculus with 36 samples.

Results

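The HoxA cluster is 1 of the 4 groups of Hox genes in the mouse genome. The 10 genes described here are Hoxa2, Hoxa3, Hoxa4, Hoxa5, Hoxa6, Hoxa7, Hoxa9, Hoxa10, Hoxa11 and Hoxa13. They were taken by name from the 24411 genes listed for every RNA-seq library, a rule that uses no measured value. The cells were mesenchymal stem cells (MSCs), which are plastic-adherent stromal cells. They were grown in MesenCult medium for up to 3 passages from 8-week-old C57BL6/J mice that carried no transgene or treatment. Marrow was taken from the femur (fBM-MSCs) and from the vertebrae (vBM-MSCs) by crushing the bone, and adipose tissue (A-MSCs) and lung (P-MSCs) were minced and digested with collagenase. Smart-seq2 libraries of full-length cDNA were analysed from 2 vBM-MSC cultures and from 3 cultures of each other tissue. Open chromatin was profiled by ATAC-seq, with 1 peak list per tissue pooled over 6 samples, which the labels give as 3 replicates with 2 sequencing runs each. The RNA of vBM-MSC replicate 3 was not analysed here. The study took the 4 tissues from the same 3 mice, but the labels do not tell which libraries belong to one mouse.

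Hox genes encode homeodomain transcription factors that set positional identity along the body axis and, for the posterior members, along the limb. Within a cluster the genes lie in the order in which they are used, so that genes at the 3′ end (Hoxa2 to Hoxa5) act toward the head and thorax and genes at the 5′ end (Hoxa9 to Hoxa13) act toward the tail and in the limb. Stromal cells of adult organs keep part of this code in culture. Hoxa2 acts in the hindbrain and pharyngeal arches, and Hoxa3 in thymus and parathyroid development. Hoxa5 is required for normal development of the lung and trachea. Hoxa9, Hoxa10, Hoxa11 and Hoxa13 pattern the limb, where Hoxa11 acts in the forearm and shank and Hoxa13 in the hand and foot.

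In mm10 coordinates (GRCm38.p6 RefSeq transcripts), the 10 genes cover chr6:52162417-52260880, or 98.5 kb, and all are transcribed from the minus strand. Hoxa3 spans chr6:52169062-52213067, so that Hoxa4, Hoxa5 and Hoxa6 lie within its introns. Hoxa10 has 2 annotated start sites, an inner one at position 52234939 and an outer one at 52240854. The exons of Hoxa11 overlap those of Hoxa11os, a noncoding gene on the opposite strand, by 568 bases, and those of Hoxa3 overlap the antisense Hoxaas2 by 390 bases and Hoxaas3 by 28. Smart-seq2 does not keep the strand, so reads in these stretches cannot be assigned to one of the partners.

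The accessibility results turned on a few stretches of DNA. Those printed here held a summit, or lay beside one, that was listed or strongest in some of the tissues. The first 3 are the 250 bases before the start sites of Hoxa5 (chr6:52204588-52204837), of the inner Hoxa10 transcript (chr6:52234940-52235189) and of Hoxa11 (chr6:52245811-52246060), on the minus strand, from the RefSeq promoter table of GRCm38.p6, which held 9 of the 10 genes and no Hoxa4. The other 2 are 250 bases around an ATAC-seq summit on the plus strand: one in an intron of Hoxa3 (chr6:52185241-52185490), and one between Hoxa9 and Hoxa10 (chr6:52230623-52230872). None of them overlaps an exon of a coding gene. The stretch of the inner Hoxa10 transcript held 1 summit, in fBM-MSCs, with a fold of 5.15 that did not reach the threshold used below, and the nearest summit past it lay 542 bases inside the gene. Capitals mark matches on either strand to 3 short motifs: TGATTNAT, bound by HOX and PBX together, TTTATNG, preferred by posterior HOX proteins, and TGANTCA, a loose form of the AP-1 site. The last allows any base in the middle, so a match to it need not be an AP-1 site. A sequence without capitals held no match.
Hoxa5 start site: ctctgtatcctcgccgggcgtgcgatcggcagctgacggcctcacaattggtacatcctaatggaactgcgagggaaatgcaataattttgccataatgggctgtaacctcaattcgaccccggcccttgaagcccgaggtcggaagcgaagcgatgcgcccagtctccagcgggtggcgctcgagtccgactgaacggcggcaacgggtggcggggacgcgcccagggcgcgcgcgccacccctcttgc
Hoxa10 inner start site: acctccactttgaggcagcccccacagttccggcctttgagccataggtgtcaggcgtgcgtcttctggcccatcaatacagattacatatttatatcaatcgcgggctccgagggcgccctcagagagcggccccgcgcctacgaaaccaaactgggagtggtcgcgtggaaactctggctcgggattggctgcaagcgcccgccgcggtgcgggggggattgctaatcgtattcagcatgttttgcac
Hoxa11 start site: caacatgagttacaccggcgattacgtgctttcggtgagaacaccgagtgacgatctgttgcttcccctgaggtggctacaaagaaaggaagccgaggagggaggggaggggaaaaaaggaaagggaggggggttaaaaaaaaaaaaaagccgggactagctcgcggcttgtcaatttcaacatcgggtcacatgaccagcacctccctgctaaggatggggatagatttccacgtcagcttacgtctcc
Hoxa3 intron region: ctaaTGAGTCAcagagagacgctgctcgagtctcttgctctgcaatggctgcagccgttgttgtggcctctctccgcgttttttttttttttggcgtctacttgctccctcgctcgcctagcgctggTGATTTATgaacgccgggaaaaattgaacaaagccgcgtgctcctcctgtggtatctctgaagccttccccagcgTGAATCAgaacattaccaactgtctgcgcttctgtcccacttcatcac
Hoxa9 to Hoxa10 region: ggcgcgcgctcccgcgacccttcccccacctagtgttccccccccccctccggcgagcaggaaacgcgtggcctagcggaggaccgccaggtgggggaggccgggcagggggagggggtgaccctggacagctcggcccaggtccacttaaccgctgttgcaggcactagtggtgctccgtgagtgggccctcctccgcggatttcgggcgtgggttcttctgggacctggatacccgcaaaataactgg
Among these 5, the Hoxa3 intron region alone held matches, with 1 TGATTNAT and 2 TGANTCA, which do not overlap each other. The TGANTCA matches read TGAGTCA and TGAATCA. Over all 71345 A-MSC summits at the threshold used below, windows of the same length held TGATTNAT in 5.9%, TTTATNG in 8.6% and TGANTCA in 33.0%. In the 250 bases before 32851 RefSeq start sites the shares were 2.8%, 9.8% and 6.7%. G and C made up 63.6% of the Hoxa5 stretch and 69.2% of the Hoxa9 to Hoxa10 region, against 52.0% in the Hoxa11 stretch and in the Hoxa3 intron region.

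Depth ranged from 19569650 to 40517739 expected counts per library. The 4 positive MSC markers Itgb1, Cd44, Ly6a and Vcam1 were present in every tissue. Of the 8 macrophage markers, 2 to 4 were at 0 TPM in every library of a tissue, among them Fcgr1 in each and Adgre1 in all but A-MSCs. Their sum was 40.52 to 52.09 TPM in fBM-MSCs, 24.41 to 45.1 in vBM-MSCs, 17.81 to 27.05 in A-MSCs and 14.73 to 16.86 in P-MSCs. On average it was highest in fBM-MSCs and lowest in P-MSCs, like the posterior HoxA genes, though the fBM-MSC and vBM-MSC ranges overlapped. Lyz2 and Cd68 made up most of it in fBM-MSCs, at means of 27.0 and 14.6 TPM. Other markers went another way. Csf1r was lowest in fBM-MSCs (0.74 TPM, against 5.90 in A-MSCs), and Cd14 was highest in P-MSCs (5.09 TPM). The 6 mesothelial markers summed to between 60.58 and 77.16 TPM in A-MSCs and to at most 4.14 elsewhere, where Wt1 and Lrrn4 were at 0, and 2 of them (Krt8 and Krt18) are on the epithelial list too. The 6 endothelial markers summed to between 3.53 and 55.54 in A-MSCs, 2.55 and 8.29 in P-MSCs and at most 1.19 in the marrow MSCs. Emcn alone ran from 2.32 to 49.5 TPM over the A-MSC libraries. The 8 epithelial markers summed to between 41.69 and 67.04 TPM in A-MSCs, 52.41 and 60.87 in P-MSCs and at most 12.87 in the marrow MSCs, with Sftpc and Nkx2-1, which mark lung epithelium, at 0 everywhere. In P-MSCs nearly all of that sum was Krt19, at 51.69 to 59.82 TPM, with Epcam at a mean of 0.10 and Krt8 at 0.08. The 3 negative MSC markers summed to between 10.26 and 79.19 TPM in fBM-MSCs and to at most 7.87 elsewhere. In fBM-MSCs nearly all of that sum was Cd34, at 10.24 to 79.16 TPM. The part of these cells in the HoxA levels was not tested.

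The fBM-MSCs held mostly posterior HoxA transcripts and the P-MSCs mostly anterior ones. Levels are given as TPM, which scales every library to the same sum, is corrected for transcript length and can be compared between genes. Summed over the 10 genes, fBM-MSCs had 44.3 ± 7.64 TPM (SD, n = 3), P-MSCs 38.0 ± 3.81 (SD, n = 3), vBM-MSCs 29.7 ± 22.6 (SD, n = 2) and A-MSCs 29.0 ± 6.68 (SD, n = 3). Hoxa9 to Hoxa13 made up 79.8% ± 1.92 of that sum in fBM-MSCs and 0.50% ± 0.15 in P-MSCs. A-MSCs had 17.4% ± 13.7 and vBM-MSCs 13.1% ± 5.46. The share of Hoxa2 to Hoxa5 was 4.42% ± 1.46 for fBM-MSCs, 54.5% ± 9.72 for A-MSCs, 58.0% ± 9.81 for vBM-MSCs and 85.0% ± 0.56 for P-MSCs. The ranges of the posterior share in vBM-MSCs (9.26% to 16.98%) and A-MSCs (5.7% to 32.49%) overlapped, while those of fBM-MSCs and P-MSCs overlapped with no other tissue. In bulk RNA, fewer cells that express a gene and less RNA per cell cannot be told apart.

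**Figure D1:**
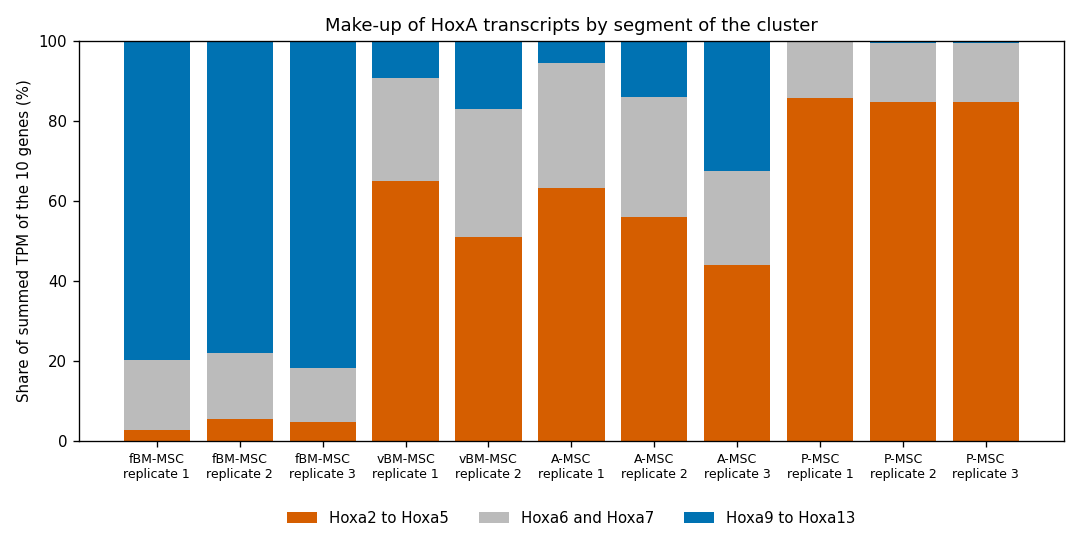
Share of the summed TPM of the 10 HoxA genes (vertical axis, percent) taken by Hoxa2 to Hoxa5, Hoxa6 and Hoxa7, and Hoxa9 to Hoxa13 in each of the 11 RNA-seq libraries. The posterior share lies between 78.02% and 81.84% in the fBM-MSC libraries and between 0.33% and 0.59% in the P-MSC libraries.

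At a level of at least 1 TPM in every library of the tissue, fBM-MSCs held 4 members (Hoxa7, Hoxa9, Hoxa10 and Hoxa11), vBM-MSCs 5 (Hoxa2, Hoxa3, Hoxa4, Hoxa5 and Hoxa7), A-MSCs 4 (the same without Hoxa2) and P-MSCs the same 5 as vBM-MSCs. Over all 24411 genes, 41.6%, 42.0%, 40.5% and 41.8% reached this level in the 4 tissues. Hoxa7 was the one member that reached it in all of them. Leaving out vBM-MSC replicate 1 raised the vBM-MSC count to 8, through Hoxa6, Hoxa9 and Hoxa10.

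**Figure D2:**
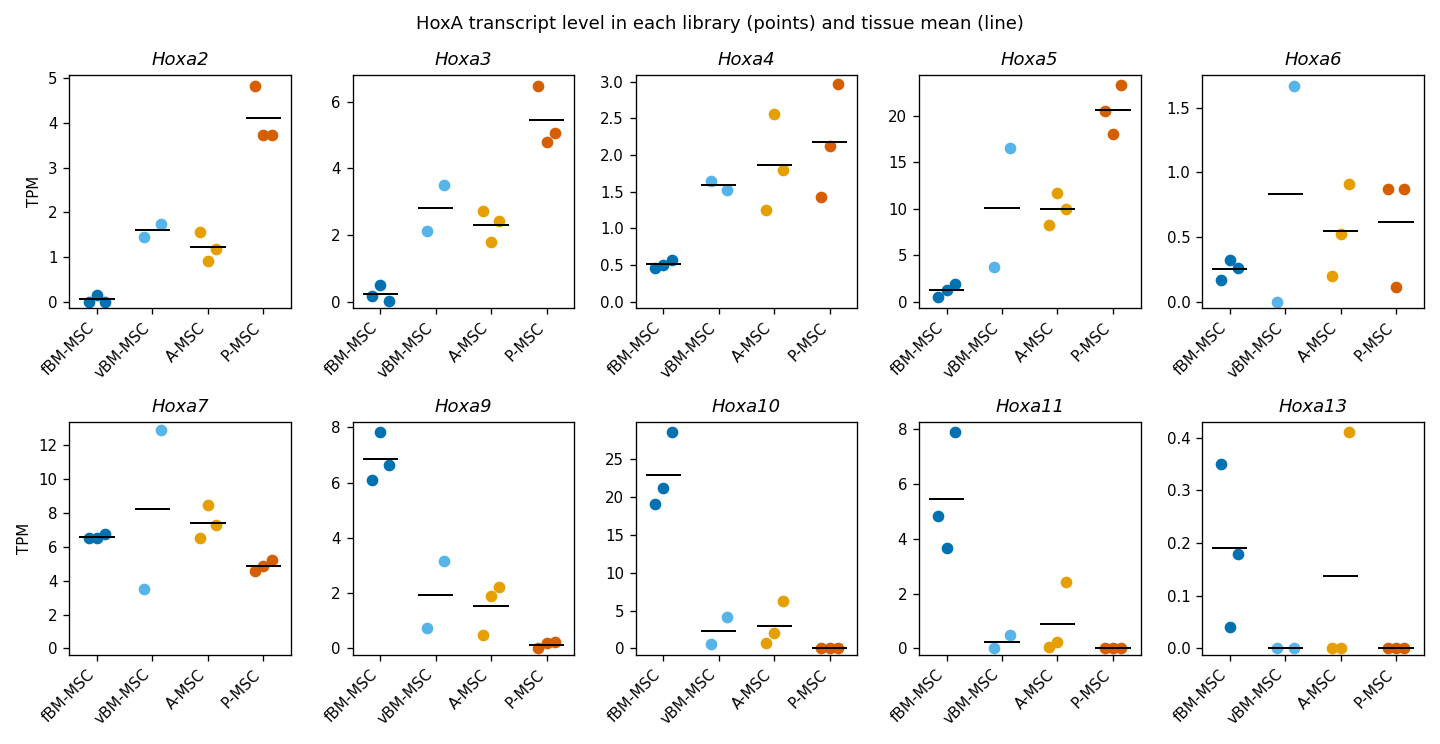
TPM (vertical axis, own scale in each panel) of each HoxA gene in the libraries of the 4 tissues, with points for libraries and a line for the tissue mean. Hoxa2 to Hoxa5 lie lowest in fBM-MSCs, Hoxa9 to Hoxa11 lie highest there, and Hoxa7 stays between 3.54 and 12.94 TPM in every library.

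A filter on low levels (CPM of 1 or more, reached in 2 or more libraries) left 12509 genes for testing. It kept 8 members and removed Hoxa6 and Hoxa13. Hoxa11 passed it only through the fBM-MSCs and 1 A-MSC library. edgeR's quasi-likelihood F test over the 4 tissues called 7 of the 8 at a Benjamini-Hochberg adjusted p under 0.05, with Hoxa7 as the exception at an adjusted p of 0.183. Over all tested genes the test called 60.6%, so a call by itself says little here, and the size and direction of the differences are given for each gene.

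Among the anterior genes, Hoxa2, a hindbrain and pharyngeal arch gene, was at 0, 0.15 and 0 TPM in the fBM-MSC libraries (5 counts in all), 1.45 and 1.75 in vBM-MSCs, 1.56, 0.90 and 1.19 in A-MSCs, and 4.84, 3.73 and 3.74 in P-MSCs. The P-MSC libraries stood above all others and the fBM-MSC libraries below, while vBM-MSCs and A-MSCs overlapped. The log2 fold change of fBM-MSCs was −4.82 ± 0.92 (SE) against vBM-MSCs, −4.55 ± 0.89 against A-MSCs and −6.10 ± 0.91 against P-MSCs, with edgeR adjusted p of 0.00716, 0.0019 and 0.000228. All 5 counts were in fBM-MSC replicate 2, so the size of these fold changes rests on that library, and without it the fBM-MSCs were at 0 counts and each comparison was still called. Between A-MSCs and P-MSCs it was −1.55 ± 0.68 (adjusted p = 0.107), which passed the threshold in DESeq2 (adjusted p = 0.0157) and when the 2 tissues were fitted alone (0.00636).

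Hoxa3, needed for the thymus and parathyroid, had the same order. It stood at 0.16, 0.50 and 0.03 TPM in fBM-MSCs, 2.13 and 3.5 in vBM-MSCs, 2.73, 1.78 and 2.42 in A-MSCs, and 6.48, 4.80 and 5.05 in P-MSCs, and only vBM-MSCs and A-MSCs overlapped. The fBM-MSCs were lower by log2 fold changes of −3.53 ± 0.67 (SE), −3.38 ± 0.63 and −4.42 ± 0.65 against vBM-MSCs, A-MSCs and P-MSCs (edgeR adjusted p = 0.00646, 0.00146 and 0.000202). Without fBM-MSC replicate 2 they were −4.96, −4.80 and −5.83.

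Hoxa4, which helps to pattern the cervical and thoracic vertebrae, was the anterior gene that varied least. Its level was 0.46, 0.50 and 0.57 TPM in fBM-MSCs, 1.65 and 1.52 in vBM-MSCs, 1.25, 2.56 and 1.80 in A-MSCs, and 1.43, 2.13 and 2.97 in P-MSCs. The fBM-MSC libraries lay below the rest, and the other 3 tissues overlapped. The log2 difference of fBM-MSCs was −1.94 ± 0.56 (SE) against A-MSCs (edgeR adjusted p = 0.0163) and −1.95 ± 0.56 against P-MSCs (0.013), and it was −1.59 ± 0.60 against vBM-MSCs, which did not pass (0.105). Without A-MSC replicate 2 the first became 0.0558, and without P-MSC replicate 3 the second became 0.0538.

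Hoxa5, the lung and airway gene, was the most abundant anterior member. It measured 0.45, 1.22 and 1.95 TPM in fBM-MSCs, 3.67 and 16.55 in vBM-MSCs, 8.23, 11.69 and 9.99 in A-MSCs, and 20.52, 18.01 and 23.24 in P-MSCs. All P-MSC libraries were above every other library and all fBM-MSC libraries below, and the 2 vBM-MSC libraries spanned the A-MSC values, 4.51 times apart. The fBM-MSCs were lower by −2.92 ± 0.54 (SE) against vBM-MSCs, −3.07 ± 0.51 against A-MSCs and −3.92 ± 0.53 against P-MSCs on the log2 scale (edgeR adjusted p = 0.00593, 0.000723 and 0.00011). Against P-MSCs, the log2 difference was −0.85 ± 0.46 for A-MSCs (adjusted p = 0.182) and −1.0 ± 0.52 for vBM-MSCs (0.155). Without vBM-MSC replicate 2 the difference of fBM-MSCs from vBM-MSCs shrank to −1.61 (0.046), and without vBM-MSC replicate 1 it was −3.58. Of the differences from P-MSCs, that of A-MSCs passed when both tissues were fitted alone (0.00175), and that of vBM-MSCs without vBM-MSC replicate 2, where it grew to −2.30 (0.00857).

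In the middle of the cluster, Hoxa6 was close to the limit of detection, with at most 17 counts in a library. The fBM-MSC libraries had 0.17, 0.32 and 0.26 TPM, the vBM-MSC libraries 0 and 1.67, the A-MSC libraries 0.20, 0.52 and 0.91 and the P-MSC libraries 0.87, 0.11 and 0.87, so that all tissues overlapped. The deposited gene length of Hoxa6 was 699 bases, against 2254 in the RefSeq transcript used here, and its TPM was computed by the authors on the shorter one. Hoxa7, which acts in the thoracic vertebrae, was at 6.52, 6.54 and 6.79 TPM in fBM-MSCs, 3.54 and 12.94 in vBM-MSCs, 6.55, 8.49 and 7.29 in A-MSCs, and 4.59, 4.89 and 5.23 in P-MSCs. It was lower in P-MSCs than in every fBM-MSC and A-MSC library, but none of its 6 pairwise comparisons passed. The log2 difference of A-MSCs from P-MSCs was 0.80 ± 0.34 (SE, edgeR adjusted p = 0.0943) and that of fBM-MSCs from P-MSCs was 0.56 ± 0.34 (0.196). These passed when the 2 tissues were fitted alone (0.00935 and 0.0479), and when either vBM-MSC library was left out.

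Among the posterior genes, Hoxa9 was at 6.08, 7.82 and 6.64 TPM in fBM-MSCs, 0.73 and 3.15 in vBM-MSCs, 0.49, 1.90 and 2.24 in A-MSCs, and 0, 0.18 and 0.22 in P-MSCs. The order of Hoxa2 was thus turned around, with fBM-MSCs on top, P-MSCs at the bottom and the remaining tissues overlapping. The log2 fold change of fBM-MSCs was 5.83 ± 0.92 (SE) against P-MSCs (edgeR adjusted p = 0.00034), 2.04 ± 0.74 against A-MSCs (0.0454) and 1.90 ± 0.86 against vBM-MSCs (0.17). The call against A-MSCs was lost in 8 of the 11 fits that left out 1 library. Hoxa9 was also higher than in P-MSCs by 3.93 ± 0.92 in vBM-MSCs (0.00569) and by 3.79 ± 0.87 in A-MSCs (0.00756), the former lost without vBM-MSC replicate 2, at 2.63 (0.0672). The P-MSC level rested on few counts, and leaving out 1 P-MSC library moved the difference of fBM-MSCs to between 5.21 and 6.50.

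Hoxa10, a hindlimb and uterine gene, reached the highest level of any member in any tissue. It stood at 19.09, 21.23 and 28.55 TPM in fBM-MSCs, 0.54 and 4.11 in vBM-MSCs, 0.70, 2.10 and 6.29 in A-MSCs, and 0.11, 0.02 and 0.02 in P-MSCs, where it rested on 8 counts in all. Every fBM-MSC library was above every other library, and every P-MSC library below. The log2 fold change of fBM-MSCs was 3.42 ± 0.91 (SE) against vBM-MSCs (edgeR adjusted p = 0.0305), 2.84 ± 0.75 against A-MSCs (0.0103) and 8.81 ± 1.10 against P-MSCs (6.55e-05). Without fBM-MSC replicate 2 the first had an adjusted p of 0.0568, and without vBM-MSC replicate 1 it was 2.64 (0.156), against 5.42 without vBM-MSC replicate 2. The difference from A-MSCs was 3.96 without A-MSC replicate 3. The size of the difference from P-MSCs rests on P-MSC replicate 1, which held 6 of the 8 counts, and it was called without that library too. Against P-MSCs it was 5.39 ± 1.12 in vBM-MSCs (0.00293) and 5.97 ± 1.07 in A-MSCs (0.00191), and the vBM-MSC difference became 3.39 (0.0703) without vBM-MSC replicate 2. Without A-MSC replicate 3 the A-MSC difference was 4.85.

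The ratio of Hoxa10 to Hoxa5 within a library summarises the contrast. It lay between 14.6 and 42.4 in fBM-MSCs and between 0.001 and 0.005 in P-MSCs, with A-MSCs at 0.085 to 0.63 and vBM-MSCs at 0.147 to 0.248 between them. RSEM assigned 20.1%, 19.3% and 21.4% of Hoxa10 in the fBM-MSC libraries to the longer transcript, of 2565 bases from the inner start site, as read from the mean gene length. In the libraries with over 100 counts it was 14.1% in vBM-MSC replicate 2 and 27.4% and 15.1% in A-MSC replicates 2 and 3. By this estimate the shorter transcript, of 2161 bases from the outer start site, carried most of the Hoxa10 RNA in each of these libraries.

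Hoxa11, the gene of the forearm and shank, was at 4.84, 3.67 and 7.89 TPM in fBM-MSCs, 0 and 0.50 in vBM-MSCs, 0.05, 0.25 and 2.42 in A-MSCs, and 0.02, 0 and 0 in P-MSCs. The P-MSCs held 1 count in all, against 723 in fBM-MSCs, which is a ratio per expected count of 866 with an exact 95% interval from 155 to 3.42e+04 that covers counting error only. edgeR called this difference too (adjusted p = 0.00149), but Hoxa11 entered the test through the libraries where it was high, so the call adds no support to the counts. Against vBM-MSCs the log2 fold change was 4.52 ± 1.54 (SE, edgeR adjusted p = 0.0782), and against A-MSCs 2.50 ± 1.16 (0.106). Without A-MSC replicate 3, which held 128 of the 144 A-MSC counts, the latter was 5.11 (0.0103), and the former passed without that library (0.0369) or without vBM-MSC replicate 2 (0.0436). The 144 A-MSC counts against the 1 P-MSC count gave a ratio of 140 (95% interval from 24.7 to 5.56e+03, edgeR adjusted p = 0.0152), a call lost without A-MSC replicate 3 (0.0819) and without any 1 of the P-MSC libraries.

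Hoxa13, the most distal limb gene, was nearly absent. It had 5, 1 and 5 counts in the fBM-MSC libraries (0.35, 0.04 and 0.18 TPM), 11 counts in A-MSC replicate 3 (0.41 TPM), and 0 in the other 7 libraries. With a floor of 3 counts set for the P-MSC libraries, the ratio of fBM-MSCs to P-MSCs per expected count was 4.39. With the same floor set for the vBM-MSC libraries, the ratio to vBM-MSCs was 2.73. Both ratios take the fBM-MSC counts as exact and leave out the spread between cultures, so neither is a lower bound. No test was made on so few counts.

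**Figure D3:**
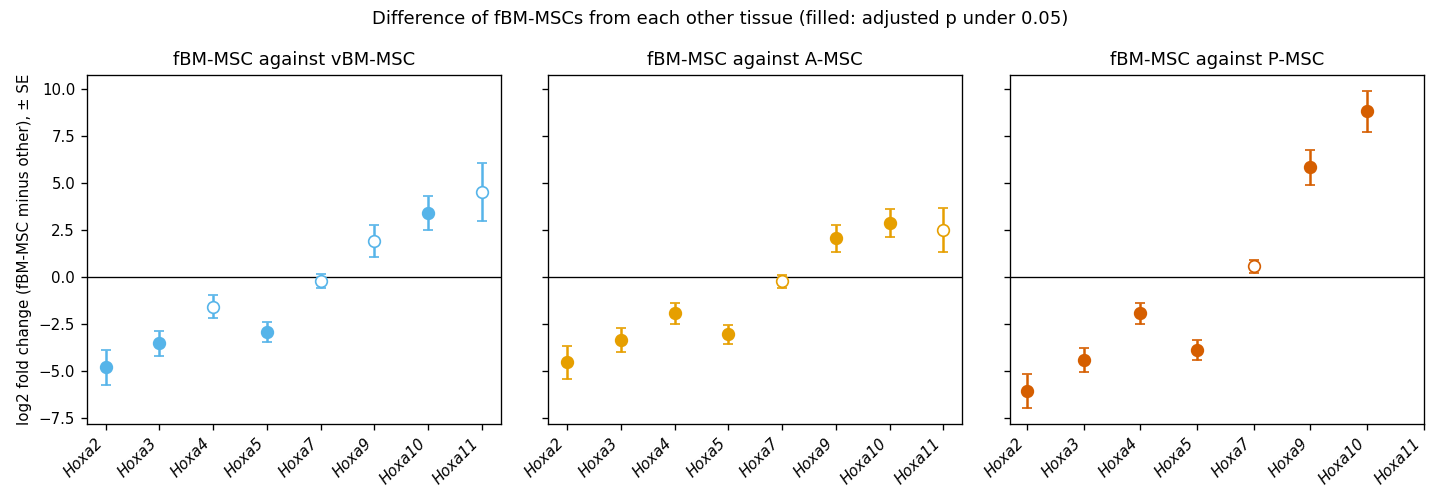
Log2 fold change of fBM-MSCs (vertical axis, ± SE) against vBM-MSCs, A-MSCs and P-MSCs for the 8 tested genes in cluster order, with filled symbols at an edgeR adjusted p under 0.05. Hoxa2 to Hoxa5 lie below 0 and Hoxa9 and Hoxa10 above 0 in each panel, Hoxa7 lies between −0.24 and 0.56, and Hoxa11 lies above 0 where drawn, being left out against P-MSCs, which held 1 count.

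Counted by pair of tissues, fBM-MSCs against vBM-MSCs gave 4 members called, Hoxa2, Hoxa3 and Hoxa5 lower and Hoxa10 higher in fBM-MSCs, where 12.8% of all tested genes were called, 5.24% higher and 7.56% lower. With the 5 marrow libraries fitted alone, which takes another spread, fewer libraries and fewer genes, it was 0 (adjusted p from 0.0657 to 0.11 for the same 4 genes, with like fold changes), and calls over all genes fell from 1601 to 305. The fBM-MSCs differed from A-MSCs in 6 members, 4 lower and 2 higher (40.9% of all genes, 20.3% lower and 20.6% higher), and from P-MSCs in 7, 4 lower and 3 higher (47.7%, with 23.0% lower and 24.7% higher). The vBM-MSCs differed from P-MSCs in 2 (38.7% of all genes, 21.0% higher and 17.7% lower) and the A-MSCs from P-MSCs in 3 (30.9%, with 16.0% higher and 14.9% lower), all of them posterior genes lower in P-MSCs. The counts against P-MSCs include Hoxa11 for fBM-MSCs and A-MSCs, which passed the filter only through libraries of these tissues. With A-MSCs and P-MSCs fitted alone the count was 6, of which Hoxa2, Hoxa3, Hoxa5 and Hoxa7 gained the call and Hoxa11 was not among them, so that it was no longer posterior genes only. These comparisons share libraries. The median log2 fold change of the 8 members was −0.91, −1.09 and −0.70 for fBM-MSCs against vBM-MSCs, A-MSCs and P-MSCs, beside 0.02, 0.03 and 0.02 over all genes, with opposite ends of the cluster on opposite sides of 0.

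Between vBM-MSCs and A-MSCs edgeR called no member, where 25.6% of all tested genes were called. None of the 8 had an unadjusted p under 0.05, the smallest being 0.178 for Hoxa11, and DESeq2 and limma called none either. The log2 differences were 0.27 ± 0.75 (SE) for Hoxa2, −0.15 ± 0.51 for Hoxa5, −0.02 ± 0.37 for Hoxa7, −0.58 ± 0.82 for Hoxa10 and −2.01 ± 1.40 for Hoxa11, the largest of the 8, and the errors of the 8 members ran from 0.37 to 1.40, so that smaller differences could not be resolved. The replicates of both tissues were far apart for some members. Hoxa10 was 7.61 times higher in vBM-MSC replicate 2 than in replicate 1, and 8.99 times higher in A-MSC replicate 3 than in replicate 1. The same ratios were 4.51 and 1.21 for Hoxa5, 3.66 and 1.11 for Hoxa7, 4.32 and 4.57 for Hoxa9, and 1.21 and 0.763 for Hoxa2. Hoxa11 was the most uneven, with 128 counts in A-MSC replicate 3 against 2 and 14 in the other A-MSC libraries, and 25 and 0 in vBM-MSCs. Without vBM-MSC replicate 2, Hoxa7 was called, at −1.09 (adjusted p = 0.0293).

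Across the 11 libraries, the genes of one end of the cluster went together and the 2 ends went apart. Pearson's r of log2(TPM + 1) was between 0.75 and 0.98 among Hoxa2 to Hoxa5, between 0.89 and 0.98 among Hoxa9 to Hoxa11, and between −0.92 and −0.74 from one group to the other, with the 4 tissues as the main contrast behind each value. Hoxa7 had r between −0.32 and 0.05 with the anterior genes and between 0.27 and 0.51 with the posterior ones. Outside the cluster, the genes most like each member by r were Nrf1 (0.983) and Gjc1 (0.978) for Hoxa2, and Zfp57 and Psme3 (both 0.978) for Hoxa3. They were Rsl24d1 (0.943) and Grb10 (0.935) for Hoxa4, Ifrd1 (0.987) and Timm9 (0.98) for Hoxa5, and Nxt2 (0.882) and Syf2 (0.881) for Hoxa7. For Hoxa9 they were Hoxc10 (0.966) and Atp6v1d (0.965), for Hoxa10 Hoxc10 (0.974) and Mt1 (0.973), and for Hoxa11 Trem2 (0.983) and Ltc4s (0.973). Hoxc10 is a posterior gene of another Hox cluster.

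The noncoding genes of the cluster followed their neighbours in part. Hoxa11os, antisense to Hoxa11, was at 2.99, 1.69 and 3.22 TPM in fBM-MSCs and 1.26 in A-MSC replicate 3, and at 0 in the other 7 libraries, which are the libraries with at most 25 Hoxa11 counts. Exons of Hoxa11os and Hoxa11 overlap and Smart-seq2 does not keep the strand, so reads of one may be counted for the other. Mira, between Hoxa6 and Hoxa7, was higher than in P-MSCs (2.82 ± 1.0 TPM, SD, n = 3) in vBM-MSCs (log2 difference 1.93 ± 0.55, SE, edgeR adjusted p = 0.0166) and in A-MSCs (1.47 ± 0.51, 0.0469). Hotairm1, at the anterior end of the cluster, had mean levels from 9.80 TPM in fBM-MSCs to 21.7 in A-MSCs from at most 31 counts a library. Hoxaas2 and Hoxaas3 were below 1 TPM in every library, Halr1 had at most 3 counts, and Hottip was at 0 throughout.

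Of the genes that flank the cluster, Snx10, Skap2, Hibadh and Tax1bp1 passed the filter, Evx1 did not, and Snx10 and Tax1bp1 differed among the tissues. Tax1bp1 was lower in A-MSCs than in each other tissue, most against vBM-MSCs (log2 difference of vBM-MSCs 0.74 ± 0.13, SE, edgeR adjusted p = 0.00249). Snx10 was higher in fBM-MSCs than in each other tissue, by log2 differences from 0.46 to 0.66.

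ATAC-seq peak lists give the position of each summit and its fold, the ratio of reads over the genome-wide background. In all 4 lists every fold was a whole multiple of 0.3679 (within 0.05 of a step), so a fold has the same scale in each. The lists held 110792, 101543, 114477 and 100571 summits in fBM-MSCs, vBM-MSCs, A-MSCs and P-MSCs, of which 64300, 59536, 71345 and 64057 had a −log10 q of at least 7, the threshold used here. Each list pools its samples, so the folds carry no replicate error and no test was made between tissues. By this measure the anterior 44.2 kb around Hoxa2 to Hoxa5 held 3 fBM-MSC summits, 7 vBM-MSC, 12 A-MSC and 11 P-MSC summits, while the posterior 42.3 kb around Hoxa9 to Hoxa13 held 11, 3, 2 and 2. The 14 kb around Hoxa6 and Hoxa7 held 2, 3, 5 and 3.

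**Figure D4:**
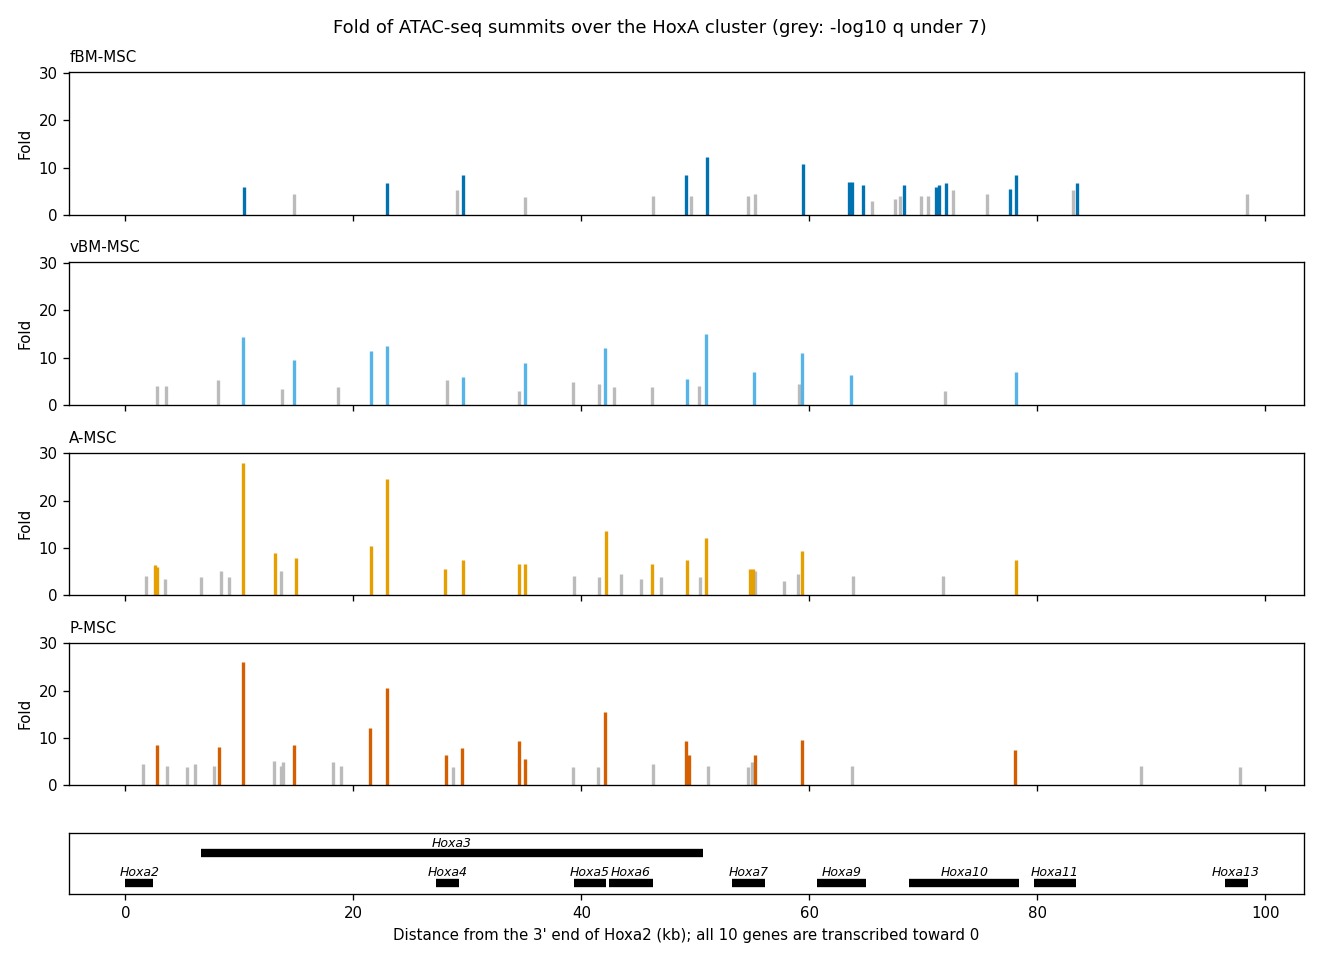
Fold of each ATAC-seq summit (vertical axis) along the HoxA cluster (horizontal axis, distance from the 3′ end of Hoxa2 in kb) in the pooled list of each tissue, in grey where the −log10 q is under 7, with the genes below. The highest lines, at 28.0 and 24.6 in A-MSCs and 26.1 and 20.6 in P-MSCs, lie within Hoxa3 and stand at 5.89 and 6.62 in fBM-MSCs, which hold most of the lines over Hoxa9 to Hoxa11.

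Summits of the 4 lists fell into 22 regions over the cluster, of which 6 were open in all 4 tissues, 6 in 3, 3 in 2 and 7 in 1. Over the 89849 regions of the genome grouped in the same way, 32.0% were open in 4 lists, 13.8% in 3, 18.7% in 2 and 35.5% in 1. The fBM-MSCs passed the threshold in 12 of the regions. In fBM-MSCs alone 4 regions passed it, against 2 for A-MSCs, 1 for P-MSCs and 0 for vBM-MSCs, and these 4 lay from Hoxa9 to Hoxa11. Over the genome, 11.4% of regions were found in fBM-MSCs alone, 9.5% for A-MSCs, 7.77% for P-MSCs and 6.8% for vBM-MSCs, so with 22 regions these counts are a description of where the regions lay. The strongest region of the cluster, with its summit in an exon of Hoxa3 (chr6:52172347-52173251), had a fold of 5.89 in fBM-MSCs against 14.3 in vBM-MSCs, and reached 26.1 in P-MSCs and 28.0 in A-MSCs. The next, in the Hoxa3 intron whose sequence is printed above (chr6:52184654-52185762), had 6.62, 12.5, 24.6 and 20.6 for fBM-MSCs, vBM-MSCs, A-MSCs and P-MSCs. Its neighbour at chr6:52183643-52184343, also in Hoxa3, was not listed in fBM-MSCs and had 11.4, 10.3 and 12.1 in the other tissues. In contrast, the intergenic region between Hoxa7 and Hoxa9 (chr6:52221336-52222563) was alike in all, with 10.7, 11, 9.20 and 9.56.

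The regions found in fBM-MSCs alone were weaker. The Hoxa9 to Hoxa10 region printed above (chr6:52230561-52231032) had a fold of 6.25 in fBM-MSCs and no summit in the other lists. The region over the Hoxa11 start site (chr6:52245379-52246198) had 6.62 and the one in a Hoxa9 exon (chr6:52226920-52227251) 6.25, again with no summit elsewhere. The region in an exon of Hoxa10 (chr6:52233325-52234697), with its summit 542 bases inside the gene from the inner start site, had 6.62 in fBM-MSCs and no summit in P-MSCs. Its folds of 4.05 in A-MSCs and 2.94 in vBM-MSCs were under the threshold. The lowest fold in any list was 2.94, so a weaker signal would not be listed.

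Start sites were called open where a summit at the threshold lay within 1 kb. By this count 5 members were open in fBM-MSCs (Hoxa3, Hoxa4, Hoxa9, Hoxa10 and Hoxa11), 4 in vBM-MSCs (Hoxa3, Hoxa4, Hoxa5 and Hoxa10), 6 in A-MSCs (Hoxa2 to Hoxa6 and Hoxa10) and 5 in P-MSCs (Hoxa2, Hoxa4, Hoxa5, Hoxa7 and Hoxa10). Over 23045 genes with a RefSeq transcript the share of open start sites was 52.0%, 52.9%, 54.0% and 53.1%, so these counts are near the background. What differed was which members were open.

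**Figure D5:**
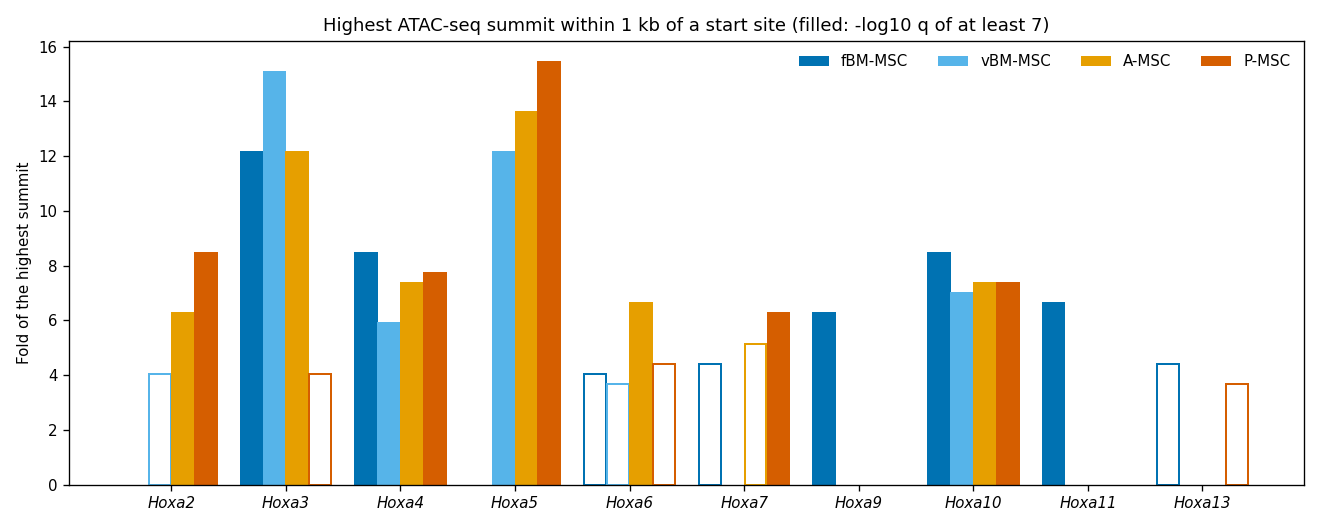
Fold of the highest ATAC-seq summit within 1 kb of a start site (vertical axis) for each HoxA gene and tissue, filled where the −log10 q is at least 7 and open otherwise, with no bar where no summit was listed. Hoxa5 has no bar in fBM-MSCs and stands at 12.1 to 15.4 in the other tissues, and Hoxa9 and Hoxa11 have bars in fBM-MSCs alone.

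At the Hoxa5 start site no summit was listed in fBM-MSCs, and the folds were 12.1 in vBM-MSCs, 13.6 in A-MSCs and 15.4 for the P-MSC list, the order of the mean Hoxa5 TPM except that vBM-MSCs and A-MSCs had like levels (10.1 and 9.97 TPM). Hoxa2 had no summit in fBM-MSCs and one under the threshold, at 4.05, in vBM-MSCs, beside 6.25 in A-MSCs and 8.46 in P-MSCs. Hoxa9 and Hoxa11 had summits in fBM-MSCs alone (6.25 and 6.62), the tissue with most of their RNA. A further region in a Hoxa9 exon, beyond 1 kb of the start (chr6:52225577-52226503), passed the threshold in fBM-MSCs (6.99) and vBM-MSCs (6.25) and was listed below it in A-MSCs and P-MSCs, so that a window of 2500 bases counted Hoxa9 as open in vBM-MSCs too. The outer start site of Hoxa10 was open in every tissue, with 8.46, 6.99, 7.36 and 7.36, while Hoxa10 RNA ran from 23.0 ± 4.96 TPM (SD, n = 3) in fBM-MSCs to 0.05 ± 0.05 (SD, n = 3) in P-MSCs.

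Other members did not pair in this way. Hoxa4 had its highest fold, 8.46, in fBM-MSCs, where its RNA was lowest, against 5.89, 7.36 and 7.73 in vBM-MSCs, A-MSCs and P-MSCs. Hoxa3 had its lowest fold, 4.05, in P-MSCs, where its RNA was highest, against 12.1, 15.1 and 12.1 in fBM-MSCs, vBM-MSCs and A-MSCs. The annotated Hoxa3 start lies between Hoxa6 and Hoxa7. Hoxa13 had summits below the threshold in fBM-MSCs (4.41) and P-MSCs (3.68). The tissue with the highest fold was the tissue with the highest mean TPM for 6 of the 10 members (Hoxa2, Hoxa5, Hoxa9, Hoxa10, Hoxa11 and Hoxa13), and for 32.7% of the 13814 genes with both a summit and RNA. For Hoxa13 this rested on a summit under the threshold and on few counts. Hoxa7 was not among the 6, but its vBM-MSC summit, with a fold of 6.99, lay 1012 bases into the gene and so just outside the window.

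Proteins that act with or on Hox genes were counted from lists, beside the 60.6% of all tested genes that differed among the tissues. Between fBM-MSCs and P-MSCs the shares of all genes were 23.0% lower and 24.7% higher in fBM-MSCs. Of the 9 HOX cofactors, 3 differed. Among them, Meis1 was lower in fBM-MSCs than in A-MSCs (log2 difference −1.64 ± 0.35, SE, edgeR adjusted p = 0.00316) and P-MSCs (−1.98 ± 0.35, 0.00073). In vBM-MSCs Meis1 was at 1.06 ± 0.65 TPM (SD, n = 2), beside 2.61 ± 1.24 (SD, n = 3) in fBM-MSCs, and its log2 difference from P-MSCs was −3.33 ± 0.44 (0.000154). Meis3 was higher in fBM-MSCs than in P-MSCs (0.73 ± 0.16, 0.00274). Of 22 Polycomb genes, which keep Hox genes silent, 13 differed, which is near the share of all genes, and between fBM-MSCs and P-MSCs 10 were lower and 4 higher in fBM-MSCs. Ezh2, the main methyltransferase of this system, was at 5.79 ± 0.42 TPM (SD, n = 3) in fBM-MSCs and at 5.76 ± 2.1 (SD, n = 2) in vBM-MSCs. It reached 43.6 ± 1.43 (SD, n = 3) in P-MSCs. Of 13 genes listed as activators of Hox chromatin, mostly of the Trithorax group, 10 differed, and 8 were lower and 0 higher in fBM-MSCs than in P-MSCs, among them Wdr5 (−1.27 ± 0.13, 1.26e-05) and Dpy30 (−1.16 ± 0.12, 1.28e-05). Both counts include Hdac7, a histone deacetylase that is no Trithorax gene (−1.26 ± 0.18, 0.000148). Between fBM-MSCs and vBM-MSCs the log2 difference was −0.48 ± 0.14 for Wdr5 (SE, edgeR adjusted p = 0.0418) and 0.08 ± 0.13 for Dpy30 (0.74).

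Of 15 genes upstream of Hox genes, mostly of the retinoic acid system, 9 passed the filter and 8 differed. Aldh1a2, which makes retinoic acid, was lower in fBM-MSCs than in A-MSCs (log2 difference −2.71 ± 0.21, SE, edgeR adjusted p = 5.18e-06) and P-MSCs (−2.30 ± 0.21, 7.59e-06) and higher than in vBM-MSCs (2.11 ± 0.27, 0.000652). Aldh1a3, which does the same, was at 64.5 ± 13 TPM (SD, n = 3) in A-MSCs, with no other library above 5.87. Cyp26b1, which degrades retinoic acid, was at 8.19 ± 4.79 TPM (SD, n = 2) in vBM-MSCs and 0.03 ± 0.05 (SD, n = 3) in P-MSCs.

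The paralogues in the other Hox clusters were counted in the same fit, against the same shares of all genes, and did not all follow the HoxA genes. In HoxB, which lacks paralogues of Hoxa10 and Hoxa11, 7 of 9 genes passed the filter, 5 differed among the tissues, and 6 were lower and 0 higher in fBM-MSCs than in P-MSCs. Hoxb5, a paralogue of Hoxa5, had 0.06 ± 0.11 TPM (SD, n = 3) in fBM-MSCs, far below the 8.72 ± 1.45 (SD, n = 3) of P-MSCs. Hoxb9, a paralogue of Hoxa9, did not have the order of Hoxa9, with 1.47 ± 1.67 TPM (SD, n = 3) in fBM-MSCs, 14.1 ± 2.57 (SD, n = 2) in vBM-MSCs and 2.49 ± 1.11 (SD, n = 3) in P-MSCs, and none of its pairwise comparisons passed (smallest edgeR adjusted p = 0.0544). In HoxC 7 of 9 were tested and all 7 differed, with 6 higher in fBM-MSCs than in P-MSCs. Hoxc5, the other tested paralogue of Hoxa5, went against it and was higher in fBM-MSCs than in P-MSCs (log2 difference 3.14 ± 0.35, SE, edgeR adjusted p = 3.03e-05). Hoxc10, a paralogue of Hoxa10, was at 19.4 ± 0.18 TPM (SD, n = 3) in fBM-MSCs and 0 counts in all P-MSC libraries. Hoxc8, also at 0 counts in P-MSCs, reached 18.5 ± 0.96 TPM (SD, n = 2) in vBM-MSCs against 2.67 ± 0.67 (SD, n = 3) in fBM-MSCs. In HoxD 3 of 9 were tested, and Hoxd8, Hoxd9 and Hoxd10 had 0 counts in P-MSCs. Hoxb9 and Hoxc10 lay outside the naming rule for these lists and were chosen after their values were seen.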

How the data were processed

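RNA-seq libraries were made with Smart-seq2, without strand information or molecular identifiers. Paired reads were quantified by the authors on mm10 with RSEM, which called STAR, and they deposited an expected count per gene, which is not normalized, and a TPM, scaled for effective transcript length to a fixed sum per library. The gene length deposited beside them was used for the share of the longer Hoxa10 transcript. For ATAC-seq, the submitters' processing notes name Trim Galore, Bowtie, Picard, bedtools and MACS2, and versions are not given in the sources used here. The authors' MACS2 lists, pooled per tissue, give as deposited the fold of each summit as a ratio over background, the −log10 q, and the summit offset.

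Expected counts were rounded and fitted with edgeR 4.0.16 (R 4.3.3) in 1 model of 11 libraries with tissue as the only term, after TMM scaling (factors 0.913 to 1.108), for 12509 genes. Tests were two-sided quasi-likelihood F tests, Benjamini-Hochberg adjusted over these genes. SE was the log2 fold change over the square root of F. The common biological coefficient of variation was 27.8%. P-values measure the spread between cultures and take libraries as independent, although tissues came from the same mice. DESeq2 1.42.0 and limma 3.58.1 on log2(TPM + 1) or log2(TPM + 0.1) were alternatives. Ratios of low counts used a floor of 3 counts or an exact binomial interval. The steps were tested on simulated data. Regions were overlapping intervals with a summit at −log10 q of at least 7. Transcripts were matched by accession to RefSeq GRCm38.p6, whose chromosome lengths fit mm10. Python 3.11.15, pandas 2.3.3, NumPy 2.4.6, SciPy 1.17.1 and Matplotlib 3.10.9 were used.

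The members are set by name, but the choice of this cluster and of the gene lists was made with earlier results of these data known. The text names all 10 members, the noncoding and flanking genes, up to 4 genes of each other list by the smallest adjusted p over the tissues, and the 2 genes outside the cluster with the highest r for each tested member. Results for some genes these rules would name are not reported here.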

Additional observations from a re-analysis of the deposited data

How the results depend on the processing

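Over 860 refits of the 48 log2 fold changes of tested members, none changed direction while called, 795 stayed on the same side of the threshold, 25 lost the call and 40 gained it. The number of members called changed by more than 1.5 times in few settings. With limma on log2(TPM + 1) it was 7 for fBM-MSCs against vBM-MSCs and 4 for vBM-MSCs against P-MSCs, beside 4 and 2. With only the 2 tissues compared it was 0 for fBM-MSCs against vBM-MSCs and 6 for A-MSCs against P-MSCs, beside 4 and 3. Another spread, fewer libraries and fewer genes enter this fit. Leaving out 1 library gave 6 to 8 members over the 4 tissues, 3 to 5 for fBM-MSCs against vBM-MSCs, 4 to 6 against A-MSCs and 6 to 8 against P-MSCs, 0 to 1 for vBM-MSCs against A-MSCs, 1 to 4 against P-MSCs, and 2 to 5 for A-MSCs against P-MSCs. Where this left 1 vBM-MSC library, it was assumed to vary like the other tissues. The median log2 fold change over all genes under limma on log2(TPM + 0.1) was −0.204 for A-MSCs against P-MSCs and 0.137 for vBM-MSCs against A-MSCs, beside −0.01 and 0.03 in edgeR.

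Numbers of the replicates did not pair the libraries: deviations from the tissue mean of same-numbered libraries had r from −0.028 to 0.125, over 0.1 in 1 of 15 pairs. A replicate block gave 6, 4, 7, 7, 0, 2 and 3 members in the same order of comparisons.

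Open start sites rose to 8 in fBM-MSCs and 8 in P-MSCs with all deposited summits, and fell to 1, 2, 2 and 1 (fBM-MSCs, vBM-MSCs, A-MSCs, P-MSCs) at a −log10 q of at least 20, where 0 regions were shared by the 4 tissues. At 5 TPM or more in every library, A-MSCs had 2 members, P-MSCs 1 and vBM-MSCs 0. Without 1 library the count at 1 TPM was 4 to 5 in fBM-MSCs, 4 to 6 in A-MSCs, 5 to 8 in vBM-MSCs and 5 to 5 in P-MSCs. The cause of these changes was not tested.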
